A study of Rattus norvegicus and Mus musculus with 9 samples.

Results

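The genes described here make and modify the parts of the ribosome before protein synthesis begins, together with the machinery of RNA polymerase I. They are a list of 48 genes chosen by function, with earlier results of these data known. For each symbol 1 probe set was kept. A symbol with several probe sets was represented by the one with the highest mean over its table. The rat arrays held 41 of the 48 among 14506 named genes, and the mouse arrays 46 among 19938. Of the 12114 symbols on both kinds of array, 40 belong to the list. The 7 genes with no value on the rat arrays were Rrn3, Npm3, Utp20, Rrp12, Pes1, Nop2 and Rrp1b, and on the mouse arrays Npm3 and Ppan had none.

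Total RNA was measured on 3 microarrays in each of 3 groups. Rat embryonic stem (ES) cells of strain DA were grown in 3I medium, rat embryonic fibroblasts of the same strain in GMEM with 10% FBS (fetal bovine serum), and C57/BL6 mouse ES cells in that serum medium with the cytokine LIF. Before RNA was taken, the mouse ES cells were freed of feeders, and the labels are silent on feeders for the rat ES cells. No group carried a labelled genetic change. Nothing in the labels says that the 3 arrays stand for 3 cultures, and the p-values therefore cover array-to-array spread alone, which may be technical. Medium and cell type cannot be told apart between the rat groups. In RNA from whole cultures, fewer cells of a type and less RNA per cell cannot be told apart either.

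Ribosome production begins in the nucleolus, where RNA polymerase I copies the ribosomal DNA into a long precursor RNA. Small nucleolar RNA-protein particles (snoRNPs) of the box C/D kind guide ribose methylation of that precursor, and those of the box H/ACA kind guide pseudouridylation. A large assembly called the small subunit processome folds and cleaves the part that becomes the 40S subunit, while a separate set of factors matures the 60S subunit. ES cells divide quickly, and large nucleoli are a known feature of fast-growing cells.

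The promoters of these genes are shown first because they are a property that the choice by function did not use. RefSeq's promoter table of build GRCr8 held 45 of the 48 genes, with 250 bases before and 50 bases after each annotated start, and no entry was found for Wdr43, Bop1 and Rrs1. The letters CACGTG, a palindrome known as the E-box and bound by Myc, Max and USF proteins, stood in the window of 16 of the 45 genes (35.6%), against 8.05% of the 11968 measured rat genes with a promoter and 6.42% of all 33469 promoters of the table. The 45 genes take in some without a value on the rat arrays. Of the 45, 38 were measured there, and 11 of these held an E-box. In 10 of the 16 genes an E-box began before the start, and in the other 6 only after it. With only the 250 bases before the start, the shares were 22.2% of the set, 7.07% of measured rat genes and 5.59% of all promoters. Stretches of 80 bases, read on the strand of the gene and with the E-box in capitals, show where it lay in 8 of these genes. Polr1b, the gene with the largest rat ES difference below and with no E-box in its window, is given for comparison.
Ltv1, chr1:9398578-9398657 on the minus strand: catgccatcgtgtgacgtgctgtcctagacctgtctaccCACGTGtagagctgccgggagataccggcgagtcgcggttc
Pes1, chr14:83074246-83074325 on the plus strand: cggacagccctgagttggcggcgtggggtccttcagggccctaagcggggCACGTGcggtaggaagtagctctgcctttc
Gnl3, chr16:6219783-6219862 on the minus strand: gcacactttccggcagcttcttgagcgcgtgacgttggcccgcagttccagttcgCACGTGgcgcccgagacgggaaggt
Utp4, chr19:51702161-51702240 on the plus strand: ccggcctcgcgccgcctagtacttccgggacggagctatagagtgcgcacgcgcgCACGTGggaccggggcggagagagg
Ddx18, chr13:35295973-35296052 on the minus strand: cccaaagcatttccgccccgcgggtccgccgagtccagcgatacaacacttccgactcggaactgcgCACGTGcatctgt
Mybbp1a, chr10:57555258-57555337 on the plus strand: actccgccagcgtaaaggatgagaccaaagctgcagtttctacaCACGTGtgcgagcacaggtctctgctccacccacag
Dkc1, chrX:157751431-157751510 on the plus strand: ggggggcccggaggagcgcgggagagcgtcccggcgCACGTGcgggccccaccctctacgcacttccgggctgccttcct
Wdr75, chr9:55395032-55395111 on the plus strand: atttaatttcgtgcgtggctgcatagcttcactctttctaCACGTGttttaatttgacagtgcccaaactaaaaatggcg
Polr1b, chr3:136787050-136787129 on the plus strand: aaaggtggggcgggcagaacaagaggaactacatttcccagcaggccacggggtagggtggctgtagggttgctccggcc

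The E-box of Ltv1 began 61 bases before the start, that of Npm3 58, that of Pes1 50, those of Gnl3 and Utp4 25 and that of Ddx18 13 bases before it. Mybbp1a was the 1 gene with 2 E-boxes, which began 156 bases and 1 base before the start. Those of Dkc1 and Wdr75 lay farther out, at 184 and 160 bases. In Fbl the E-box began 21 bases after the first transcribed base. The other motifs searched, each on both strands, were GCGCATGCG (NRF1), found in Npm1 alone, GCCATNTT (YY1), found in 5 genes (Npm3, Emg1, Ddx47, Utp20 and Wdr75), TCTCGCGAG (ZBTB33), found in Npm1 and Tsr1, and CCAAT (NF-Y), found in 11. Their shares of 2.22%, 11.1%, 4.44% and 24.4% stood beside 2.47%, 8.39%, 1.08% and 39.0% of measured rat genes. There were 0 overlaps between different motifs in these windows. The median GC content was 58.8% in the promoters of the set and 58.0% in those of measured genes, and the part of base composition in these shares was not tested. A match is a run of letters and not a shown binding site.

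**Figure D1:**
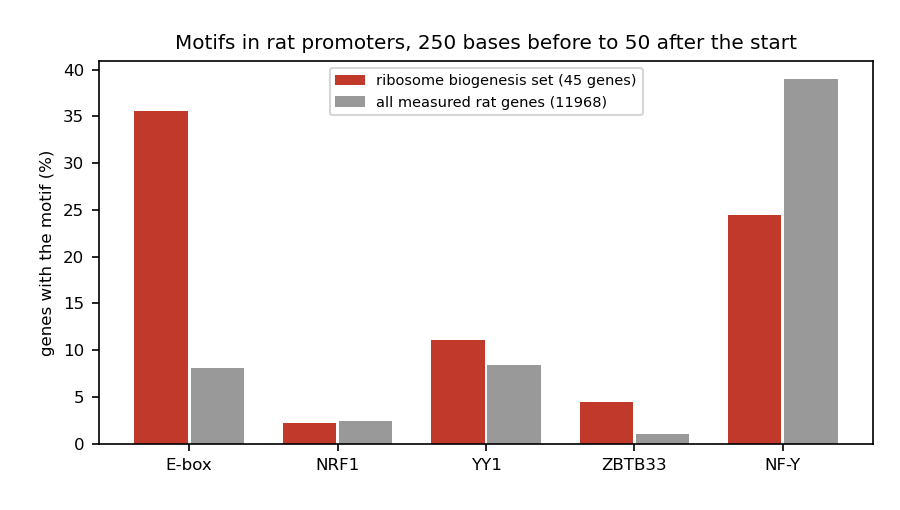
Bars give the percentage of genes with each of the 5 motifs in the rat promoter window, in red for the 45 ribosome biogenesis genes with a promoter and in grey for all 11968 measured rat genes with one. The E-box bar is at 35.6% for the set and 8.05% for measured genes. The 45 genes take in some that were not measured on the rat arrays.

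Rat ES cells had higher signals than fibroblasts for 40 of the 41 measured genes at a limma adjusted p under 0.05 (Benjamini-Hochberg over all 14506 genes), and Wdr75 was the 1 gene that was lower. Nop16 lost its call after quantile normalization (adjusted p = 0.0589, limma) and with the mean of its probe sets (adjusted p = 0.183), which left 39 genes higher. The same test found 30.9% of all genes higher and 25.5% lower. At the stricter rule of an adjusted p under 0.05 and at least a 2-fold difference, 13 of the 41 (31.7%) were called higher and 0 lower, against 10.6% and 10.1% of all genes. The median difference was 0.81 on the log2 scale, a 1.76-fold higher signal in ES cells, and the values ran from -0.30 (Wdr75) to 1.79 (Polr1b), while the median over all genes was -0.00069. In 40 genes every ES array was above every fibroblast array, as in 33.2% of all genes, and in Wdr75 every ES array was below, as in 28.3% of all genes.

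All 41 genes lay above the median of mean signal and 32 of them above its 75th percentile. Among the 7253 genes above the median signal, 48.0% were higher at an adjusted p under 0.05 and 16.7% were called at 2-fold. Among the 3627 genes above the 75th percentile these shares were 50.5% and 16.2%, and their median difference was 0.21. The arrays of a group lay close together, with a median SD over the 41 genes of 0.063 in ES cells and 0.056 in fibroblasts (log2, n = 3) and a largest SD of 0.184. The 95% interval of the difference lay wholly above 2-fold in 8 genes (Polr1b, Ubtf, Fbl, Nhp2, Ddx10, Utp14a, Emg1 and Heatr1), held 2-fold in 12, of which 5 were called and 7 not, and lay wholly below it in 21.

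**Figure D2:**
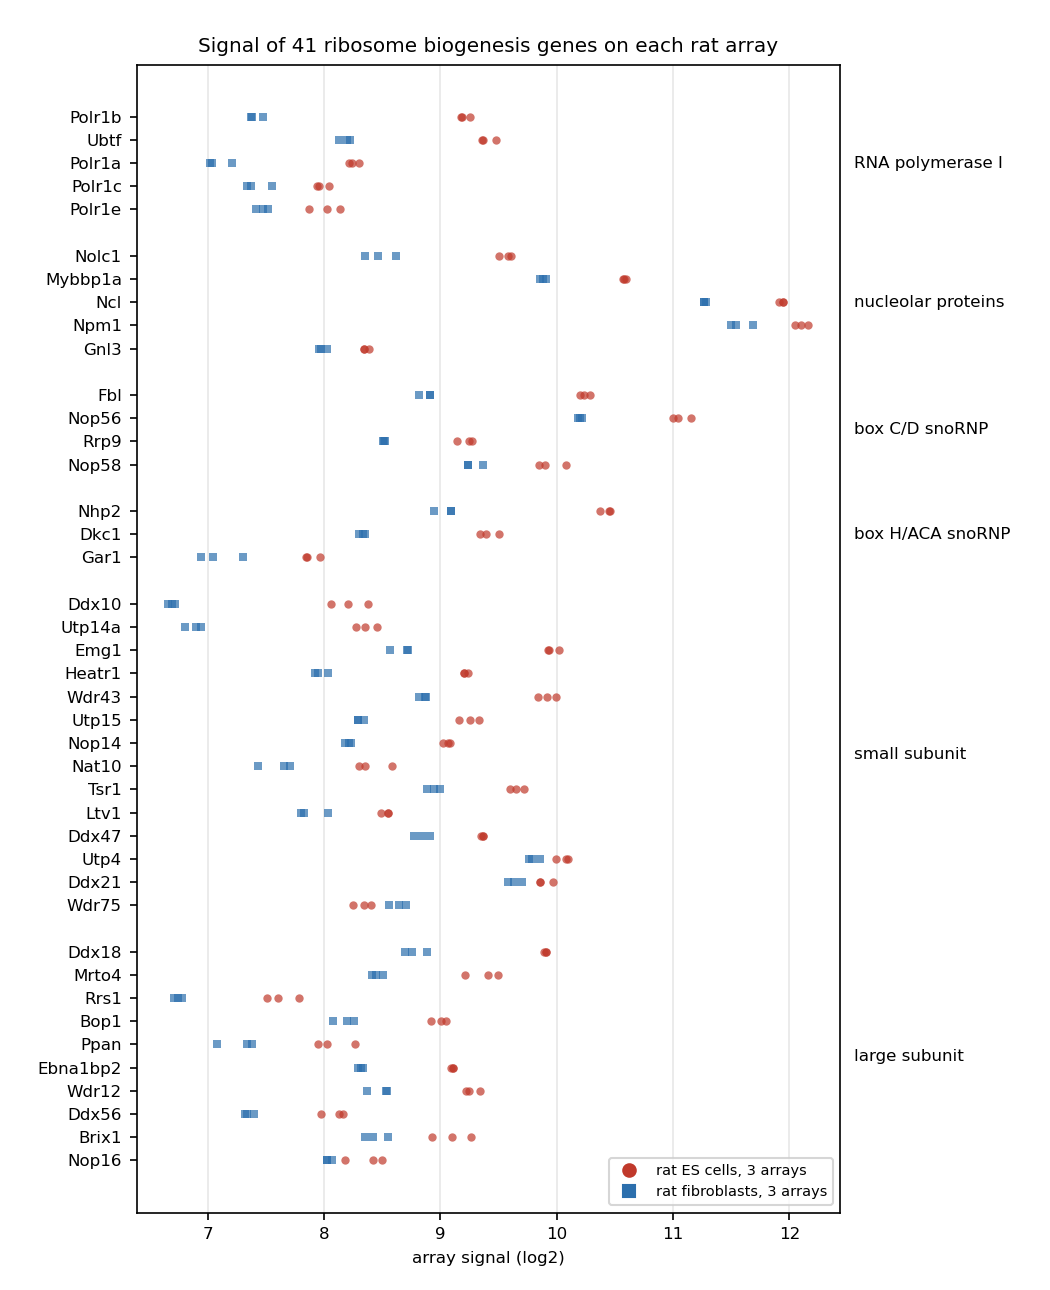
Each row is 1 of the 41 genes measured on the rat arrays, sorted by role, with the signal (log2) on the x axis, red circles for the 3 rat ES arrays and blue squares for the 3 fibroblast arrays. The red and blue points are apart in every row, with red to the right except in Wdr75.

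The RNA polymerase I machinery had 5 measured genes, all higher in ES cells at an adjusted p under 0.05 and 3 of them called at 2-fold. Polr1b, which encodes the second-largest subunit of the enzyme, was at 9.17, 9.19 and 9.25 on the ES arrays and at 7.38, 7.48 and 7.37 on the fibroblast arrays. Its signal was 3.46-fold higher in ES cells (log2 difference 1.79, SE 0.067, limma adjusted p = 8.98e-08), the largest difference of the 41 genes. Ubtf, the factor that binds along the ribosomal DNA and keeps it open for transcription, was at 9.36, 9.48 and 9.36 in ES cells and at 8.13, 8.23 and 8.19 in fibroblasts (a log2 difference of 1.22, SE 0.069, limma adjusted p = 9.82e-07). Polr1a, the largest catalytic subunit, was at 8.30, 8.24 and 8.22 against 7.21, 7.03 and 7.04 (1.16, SE 0.075). In these 3 genes every ES array was above every fibroblast array.

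The other subunits of the polymerase differed less. Polr1c, a subunit that RNA polymerase III also uses, was at 7.94, 8.05 and 7.96 in ES cells and at 7.38, 7.55 and 7.34 in fibroblasts, 1.47-fold higher (95% interval of the log2 difference 0.38 to 0.74). Polr1e was at 8.03, 8.14 and 7.87 against 7.42, 7.48 and 7.52, 1.46-fold higher (0.35 to 0.73). The intervals of both ended below that of Polr1a, which ran from 0.99 to 1.33, and that of Polr1b, from 1.64 to 1.95. Polr1c and Polr1e thus differed by less than Polr1a and Polr1b, and by like amounts to each other. No test between genes was made.

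Among the nucleolar scaffold and regulator proteins, 5 of 5 measured genes were higher in ES cells at an adjusted p under 0.05 and Nolc1 alone was called at 2-fold. Nolc1, a chaperone of snoRNPs, was at 9.61, 9.59 and 9.50 in ES cells and at 8.46, 8.62 and 8.35 in fibroblasts (a log2 difference of 1.09, SE 0.084, limma adjusted p = 6.47e-06). Gnl3, the GTPase known as nucleostemin, showed the smallest difference of this group, with 8.39, 8.34 and 8.35 against 7.96, 8.03 and 7.98 (0.37, SE 0.062). Its groups did not overlap, and the gap was 1.29-fold. The abundant nucleolar proteins nucleolin (Ncl) and nucleophosmin (Npm1) had mean signals of 11.93 and 12.10 in ES cells and differed by 0.66 and 0.53, and Mybbp1a by 0.70. Npm1 had 4 probe sets, which differed by 0.52 to 0.53, and because Npm1 has many processed copies in mammalian genomes their signals may not come from this gene alone.

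The 4 box C/D proteins were all higher in ES cells at an adjusted p under 0.05. Fbl, which encodes fibrillarin, the ribose methyltransferase of these particles, was at 10.28, 10.23 and 10.20 in ES cells and at 8.91, 8.91 and 8.82 in fibroblasts, 2.56-fold higher (log2 difference 1.36, SE 0.066, limma adjusted p = 4.07e-07). Nop58, a scaffold protein of the same particle, was at 10.08, 9.90 and 9.85 against 9.24, 9.37 and 9.24 (0.66, SE 0.084). The 95% interval of Fbl began at 1.20 and that of Nop58 ended at 0.85. Nop56 (0.86) and Rrp9 (0.70), the latter specific to the U3 particle, lay between them.

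The box H/ACA proteins were higher in 3 of 3 measured genes, 2 of them called at 2-fold. Nhp2, a core protein of the particle, was at 10.45, 10.37 and 10.46 in ES cells and at 9.10, 9.09 and 8.95 in fibroblasts, 2.60-fold higher (log2 difference 1.38, SE 0.072, limma adjusted p = 5.88e-07). Dkc1, the pseudouridine synthase dyskerin, which is also part of telomerase, differed by 1.08. Gar1, another core protein, was at 7.84, 7.85 and 7.97 against 7.30, 7.05 and 6.94 (0.79, SE 0.0998), with the largest spread among fibroblast arrays of the 41 genes (SD 0.184, n = 3). Nop10, the remaining core protein of this particle, is not in the set and was looked up after these values were seen. Its mean signal was 11.10 in ES cells and 11.09 in fibroblasts (a log2 difference of 0.0060, SE 0.067, limma adjusted p = 0.948).

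Of 14 measured genes of the small subunit processome and 40S maturation, 13 were higher and 1 was lower at an adjusted p under 0.05, and 5 were called higher at 2-fold. The RNA helicase gene Ddx10 was at 8.37, 8.06 and 8.21 in ES cells and at 6.66, 6.72 and 6.70 in fibroblasts, 2.87-fold higher (log2 difference 1.52, SE 0.088, limma adjusted p = 1.09e-06). Utp14a, a processome component, was at 8.45, 8.35 and 8.27 against 6.95, 6.90 and 6.81 (1.47, SE 0.076), and Emg1, a methyltransferase of the ribosomal RNA of the small subunit, at 10.02, 9.93 and 9.94 against 8.71, 8.72 and 8.57 (1.29, SE 0.073). In each of the 3 genes the lowest ES array was more than 1 log2 unit above the highest fibroblast array. Differences under 2-fold were seen for Nop14 (0.85), the rRNA acetyltransferase gene Nat10 (0.81), Tsr1 (0.72), Ltv1 (0.64) and Ddx47 (0.52).

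At the other end of this class were 3 genes with small differences. Wdr75 was at 8.41, 8.34 and 8.25 in ES cells and at 8.64, 8.70 and 8.56 in fibroblasts (a log2 difference of -0.30, SE 0.073, limma adjusted p = 0.00731). Ddx21, an RNA helicase of nucleolus and nucleoplasm, was at 9.97, 9.86 and 9.86 against 9.63, 9.70 and 9.58 (0.26, SE 0.070), and its second probe set gave 0.23. Utp4 was at 10.10, 10.00 and 10.08 against 9.78, 9.86 and 9.76 (0.26, SE 0.066). Wdr75 and Utp4 encode subunits of a subcomplex of the processome that binds the precursor RNA first, together with Heatr1, Wdr43 and Utp15. The differences of these 5 genes were 1.24 for Heatr1, 1.06 for Wdr43, 0.94 for Utp15, 0.26 for Utp4 and -0.30 for Wdr75. The 95% interval of Heatr1 began at 1.09 and that of Utp4 ended at 0.41. Heatr1 and Utp4, of 1 subcomplex, thus differed by unequal amounts, and no test between genes was made.

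All 10 measured 60S maturation genes were higher in ES cells at an adjusted p under 0.05, and Ddx18 alone was called at 2-fold. Ddx18, an RNA helicase, was at 9.91, 9.91 and 9.89 in ES cells and at 8.76, 8.70 and 8.89 in fibroblasts (a log2 difference of 1.12, SE 0.071, limma adjusted p = 1.94e-06). Mrto4, an assembly factor that holds the place of a stalk protein, was at 9.50, 9.41 and 9.21 against 8.41, 8.45 and 8.50 (0.92, SE 0.087). Rrs1 was at 7.61, 7.52 and 7.79 against 6.78, 6.72 and 6.75 (0.89, SE 0.084). In none of the 3 genes did the groups overlap.

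The smaller differences of this class were those of Ddx56, Brix1 and Nop16. Ddx56, an RNA helicase, was at 8.13, 8.16 and 7.97 in ES cells and at 7.40, 7.34 and 7.32 in fibroblasts (log2 difference 0.74, SE 0.075). Brix1 was at 9.27, 9.10 and 8.93 against 8.55, 8.42 and 8.36 (0.66, SE 0.0999), and Nop16 at 8.49, 8.42 and 8.19 against 8.03, 8.07 and 8.03 (0.33, SE 0.090, limma adjusted p = 0.0134). The nearest arrays of Nop16 were 8.19 and 8.07, the closest approach in this class, and its second probe set differed by -0.04. The mean of both probe sets differed by 0.14. Bop1 and Wdr12, which form a complex with Pes1 that is needed for 60S assembly, differed by 0.81 and 0.78, and Ebna1bp2 and Ppan by 0.79 and 0.81.

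**Figure D3:**
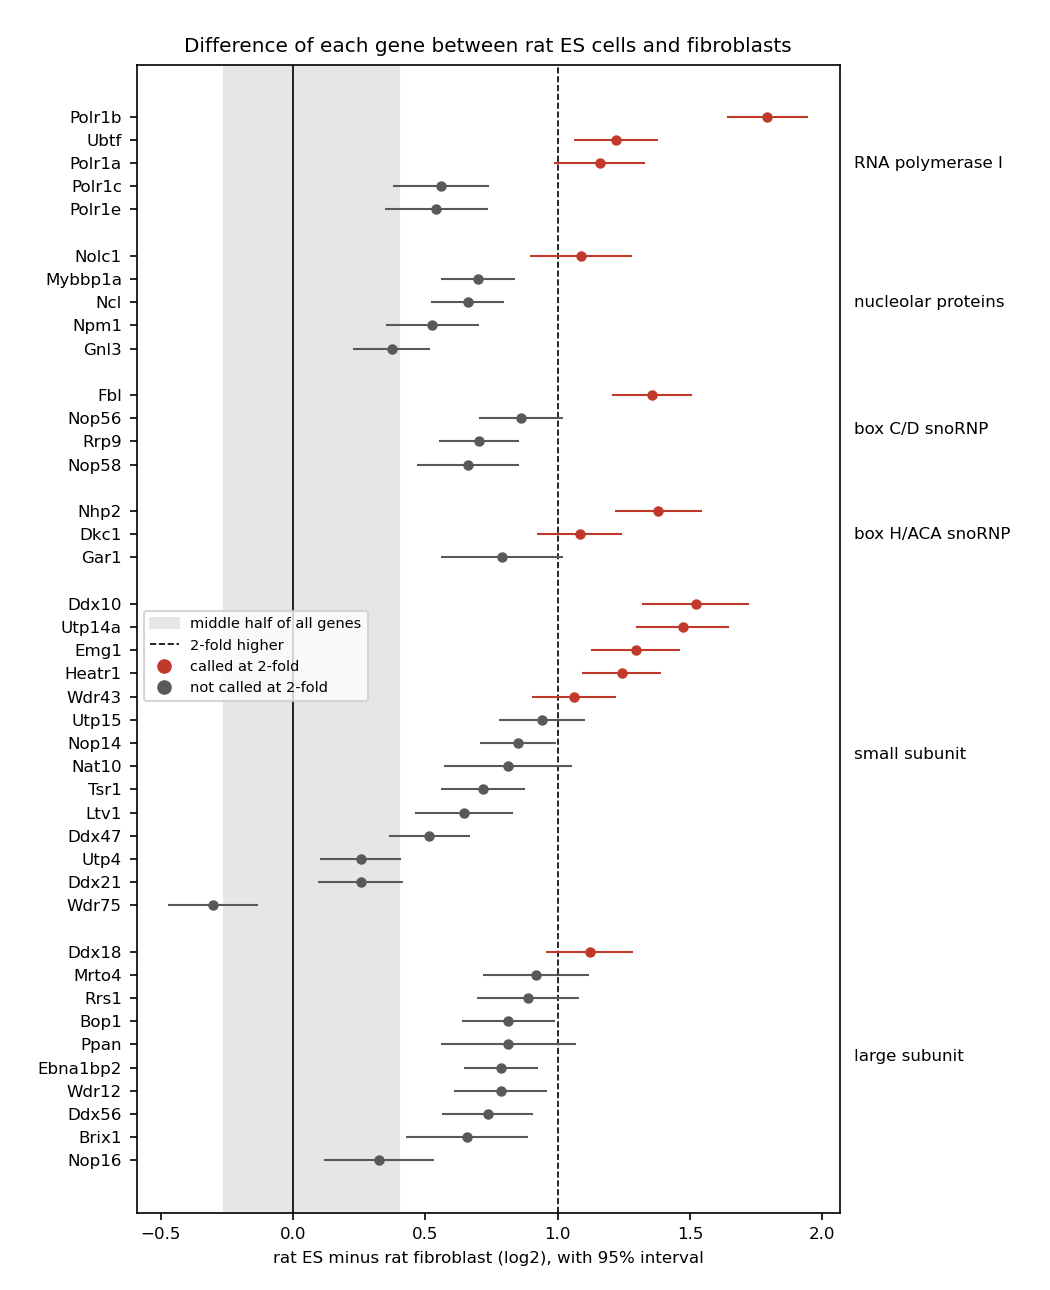
Points give the difference between rat ES cells and fibroblasts (log2) of each of the 41 genes, sorted by role, with 95% intervals from limma, red where called at 2-fold. The grey band runs from the 25th to the 75th percentile of all genes (-0.26 to 0.40), and 36 of the 41 points lie to the right of it.

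Related genes outside the set were read by lists chosen by function, some with older symbols beside current ones. Over all genes, 30.9% were higher and 25.5% lower at an adjusted p under 0.05, and 10.6% were called higher at 2-fold. Other RNA polymerase I genes had 7 of 10 higher and 1 lower at an adjusted p under 0.05, with a median difference of 0.34, and only Polr1g was called at 2-fold. Polr1g, a polymerase I subunit, was at 5.95, 6.13 and 5.80 in ES cells and at 7.27, 7.16 and 7.20 in fibroblasts (a log2 difference of -1.25, SE 0.093, limma adjusted p = 5.38e-06). Its neighbour Ercc1 overlaps it in RefSeq's GRCr8 gene table, so the signal may not be from Polr1g alone. Of 37 genes listed as other small subunit factors, which take in the snoRNP proteins Nop10 and Snu13, 33 were higher and 1 lower (Ddx49, -0.21), 4 of them called higher at 2-fold, led by Tsr2 (1.76), Imp4 (1.42) and Wdr3 (1.29). Of 37 other 60S factors, 35 were higher and 0 lower by limma, where 35 had an unadjusted p under 0.05, and 11 were called higher at 2-fold. They were led by Nvl (1.61), Tex10 (1.51) and Gnl3l (1.38). The medians of these 2 lists were 0.69 each, beside 0.81 for the set.

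Genes that act on ribosomal DNA chromatin, whether by silencing or otherwise, were higher in 6 of 7, with 3 called at 2-fold. For this and the next lists, the shares over all genes were 30.9% higher and 10.6% called higher at 2-fold. Baz2a, which encodes TIP5, the large subunit of the nucleolar remodelling complex that silences ribosomal DNA, was at 10.04, 9.99 and 9.91 in ES cells and at 8.08, 8.06 and 7.96 in fibroblasts (a log2 difference of 1.94, SE 0.071, limma adjusted p = 7.84e-08). Kdm2b differed by 1.75 and Sirt7 by 1.01. Of 9 RNA polymerase III subunits, 7 were higher and 1 lower, and Polr3g (1.34), Polr3c (1.32) and Polr3e (1.18) were called. Polr3gl, the paralogue that can take the place of Polr3g in the enzyme, differed by -0.49 (SE 0.096, limma adjusted p = 0.00211) and was looked up beside it. Of 9 genes of the RNA exosome, which trims ribosomal RNA precursors, 8 were higher and 5 called at 2-fold, led by Dis3 (1.63), Exosc8 (1.42) and Exosc7 (1.36).

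The cytosolic ribosomal protein genes encode the proteins that these factors assemble. Of 69 measured, limma called 0 at 2-fold, where 32 had an unadjusted p under 0.05, and 23 were higher and 7 lower at an adjusted p under 0.05. Those higher were 33.3% of the list, beside 30.9% of all genes and 50.5% of genes above the 75th percentile of mean signal. Over all genes 25.5% were lower. The median difference of the ribosomal protein genes was 0.11, and the range was -0.60 to 0.70. No test between this list and the set was made. The ribosomal protein genes had a median percentile of signal of 99.3 against 87.3 for the set, and 35 of the 69 were at or above nucleolin in level. The part of this height in their differences was not tested. Ribosomal protein genes also have many processed copies, and their probe sets may not be specific. Of the Myc family genes, Mycn was at 8.34, 8.53 and 8.45 in ES cells and at 5.98, 6.31 and 6.22 in fibroblasts (a log2 difference of 2.27, SE 0.098, limma adjusted p = 2.13e-07). Myc was at 3.60, 3.99 and 4.78 in ES cells and at 7.47, 7.43 and 7.39 in fibroblasts (-3.31, SE 0.254, limma adjusted p = 6.18e-06). Its ES signals lay below the lowest rat array median of 5.71 and spread widely (SD 0.60), so the size of its difference is uncertain. Max differed by 0.09.

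**Figure D4:**
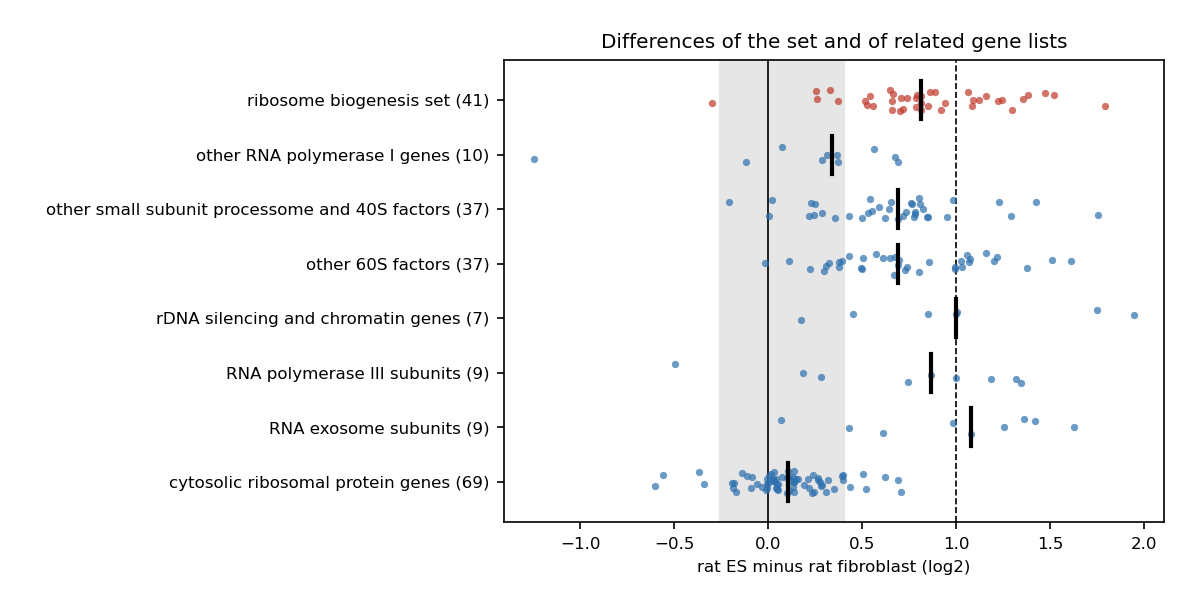
Each point is the difference of 1 gene between rat ES cells and fibroblasts (log2), by list with the number of measured genes in brackets, and black bars are medians. The grey band is the 25th to 75th percentile of all genes and the dashed line marks a 2-fold higher signal, to the right of which no ribosomal protein gene lies.

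The E-box was set beside the rat differences. The 11 genes of the set with an E-box that were measured on the rat arrays had a median difference of 0.72 (-0.30 to 1.36), and the 27 with a promoter entry and no E-box had 0.81 (0.26 to 1.79). Both Wdr75, the 1 gene lower in ES cells, and Fbl, among the highest, carried the motif, while Polr1b did not. No test was made of this comparison.

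All 6 measured ES cell markers were called higher in rat ES cells (median difference 5.43), and 8 of 10 fibroblast markers were called lower (median -4.12). Fn1 and Dcn were not called. Fn1 was at 12.56, 12.58 and 12.61 on ES arrays 1, 2 and 3 and differed by -0.86. Col1a1, though called lower, was at 9.71, 10.17 and 10.56 on these arrays. On each rat ES array 5 of the 10 fibroblast markers were below the array's median over the 14506 named genes. The log2 signals of the 10 markers added up to 70.0, 72.6 and 74.4 on ES arrays 1, 2 and 3, against 105.7 to 106.5 in fibroblasts. These are sums of log2 values, so their ratio is not a ratio of amounts. Dcn and Lum were below the median of named genes in the fibroblasts too. Over the same ES arrays the 41 genes deviated from their group means by medians of 0.028, -0.0048 and -0.025. Without ES array 3 the median difference of the set was 0.79 with 13 genes called. Array medians over all probe sets, named or not, lay between 5.71 and 5.74 in the rat table and between 4.75 and 4.77 in the mouse table. With medians this alike, a change in total RNA per cell would not appear in the values.

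Mouse ES cells were compared with the rat cells only by rank, because their arrays are of another design and were deposited as a separate table. The percentile of each gene among the 12114 shared symbols was taken within each array. The median percentile of the 40 genes was 94.3 in mouse ES cells, 89.3 in rat ES cells and 79.3 in rat fibroblasts. The lowest gene was at 65.1, 65.2 and 49.8. All 40 genes were thus above the median of the shared symbols in both kinds of ES cell. In mouse ES cells 37 of the 40 genes ranked above all rat fibroblast arrays, as did 47.3% of all shared symbols, and Ncl and Npm1 ranked below all of them, as did 42.1%. In rat ES cells 39 ranked above all fibroblast arrays and 1 below, against 37.5% and 29.8% of shared symbols. These comparisons share the fibroblast arrays.

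Between mouse and rat ES cells, 28 of 40 genes ranked higher in mouse with no overlap of arrays and 8 lower, against 44.9% and 42.5% of shared symbols. The arrays overlapped for the other 4, Utp15, Tsr1, Ltv1 and Wdr12. With percentiles among all named genes of each table, 32 of the 40 ranked higher in mouse and 3 lower (Npm1, Ncl and Utp14a), against 55.0% and 33.1% of shared symbols. With 3 arrays against 3 the smallest exact p is 0.10, and no test was made. Species, platform and culture medium differ together and cannot be told apart here. The 3 mouse arrays gave a single value for 7 of the 40 genes and 2 different values for 10, so the mouse spread is understated.

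The 5 genes with the largest percentile gap in favour of mouse were Polr1c, Gar1, Ddx56, Polr1a and Rrs1. Polr1c, with 1 value shared by the mouse arrays, was at a mean percentile of 96.7 in mouse ES cells, 71.3 in rat ES cells and 62.8 in rat fibroblasts. Gar1 was at 93.1, 69.6 and 56.8, and Ddx56, with 1 mouse value as well, at 96.6, 73.1 and 61.5. Polr1a was at 94.7, 76.0 and 56.8. Rrs1 was at 82.8, 65.2 and 50.7. By their means on the rat arrays, all 5 were below the medians of the set, 89.3 in ES cells and 79.3 in fibroblasts, though above the median of the shared symbols.

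The 5 genes with the largest gap the other way were Utp14a, Ddx10, Dkc1, Nop58 and Emg1, of which Utp14a alone still ranked lower in mouse, with no overlap, among all named genes. Utp14a was at percentiles of 66.1, 59.5 and 69.6 on the mouse arrays and at 79.2, 77.5 and 76.2 on the rat ES arrays. Ddx10 was at mean percentiles of 69.7 and 75.2. Dkc1 was at means of 87.7 and 91.0, Nop58 at 91.4 and 94.6 and Emg1 at 92.7 and 94.8. In all 5 the rat fibroblast mean was lower than the mouse mean, and the arrays of Nop58 overlapped there. Wdr75, lower in rat ES cells than in fibroblasts, had mean percentiles of 87.3 in mouse ES cells, 77.3 in rat ES cells and 82.7 in rat fibroblasts.

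The genes measured only in mouse ranked high among all 19938 named mouse genes. Rrn3, the factor that joins RNA polymerase I to its promoter, was at a mean percentile of 98.7, Pes1 at 97.8, the RNA methyltransferase gene Nop2 at 96.6, Rrp12 at 94.9, Utp20 at 94.2 and Rrp1b at 92.1.

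**Figure D5:**
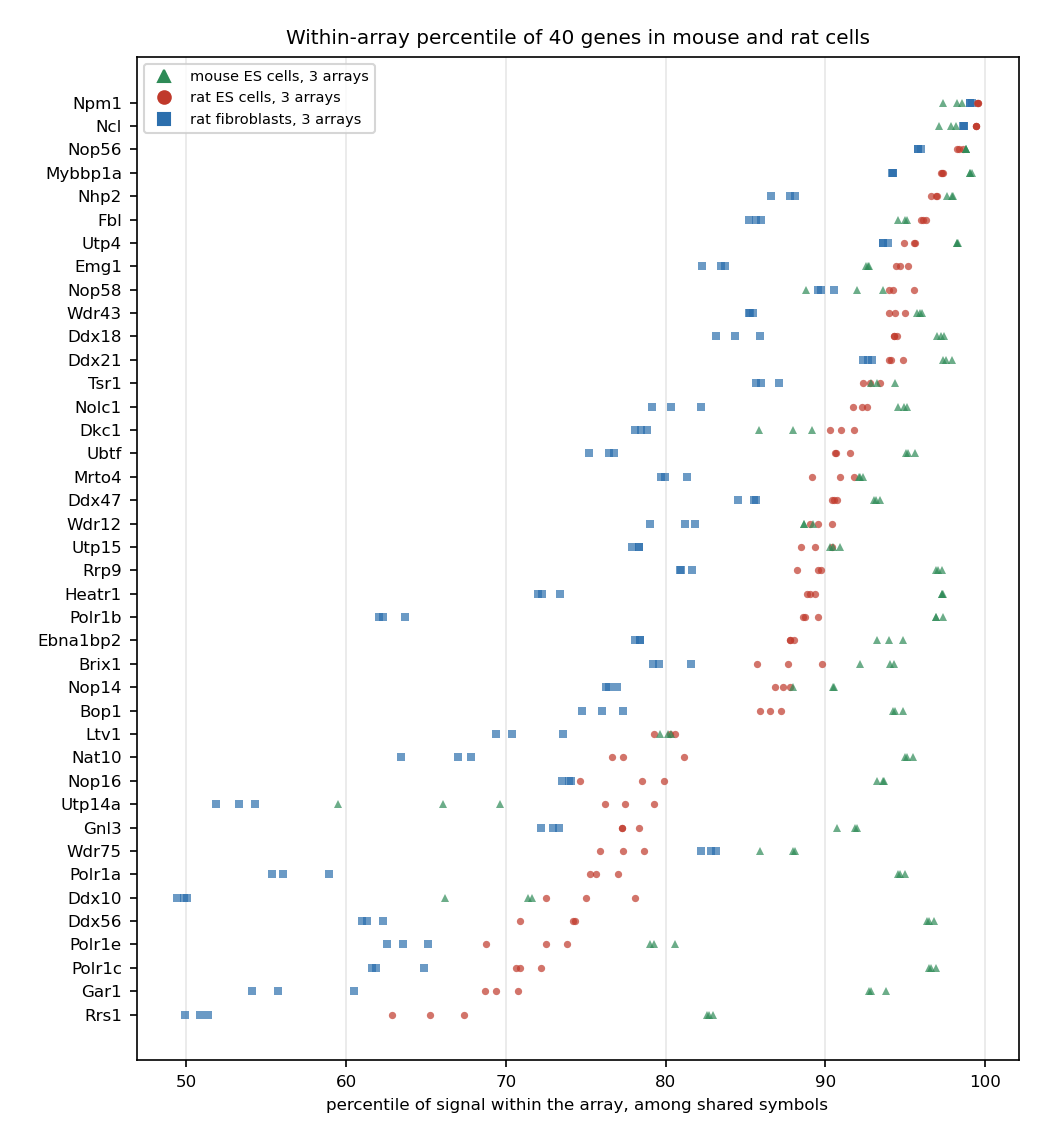
Each row is 1 of the 40 genes on both kinds of array, with the within-array percentile among 12114 shared symbols on the x axis, green triangles for mouse ES cells, red circles for rat ES cells and blue squares for rat fibroblasts (3 arrays each). Blue squares lie left of red circles in every row except that of Wdr75.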

How the data were processed

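Values for 6 rat and 3 mouse arrays were deposited by the authors as log2 signals of probe sets. The scale was read from the range of the values. Background correction, normalization and probe summary were not given in the sources used here. Per the labels' protocols, biotin-labelled single-stranded DNA was hybridized, 1 sample per array. Probe sets were named through GEO's platform annotation, which can be old, and only those with exactly 1 symbol were kept. The comparison of the rat groups used limma (version 3.58.1, R version 4.3.3) with group as the sole term, moderated variances and no filter, with Benjamini-Hochberg adjustment over all genes. This fit was run on simulated data too. There 72% of genes changed by 0.75 on the log2 scale passed an adjusted p under 0.05, and 99% of those changed by 1.5. Of the unchanged genes 0.084% passed. In that simulation 14306 of 14506 genes were unchanged, unlike in the rat comparison, so these rates need not hold there. A gene counted as holding a motif where any of its listed promoters did.

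The members, lists and rules were chosen with earlier results of these data known. All measured members could be named. Signals on every array were given for the polymerase I genes, for the extremes of each other class and for genes lower in ES cells. Each related list was represented by up to 3 called genes and up to 3 called against its majority, and the mouse ranks by 5 genes at each end. Pairs of mouse arrays shared between 16691 and 20845 identical values of 35557, against at most 30 of 29215 for rat pairs, so no SD over mouse arrays is printed. Alternatives were 2 normalizations, filters on low signals, other probe set rules, another variance model, other thresholds, a replicate block and leaving out each array.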

Additional observations from a re-analysis of the deposited data

How the results depend on the processing

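All 41 genes kept their direction in the rat comparison under the 2 normalizations, with the mean of probe sets and with each array left out. The filters, thresholds, variance model and replicate block leave each difference as it was, so direction could not change there. The fit with every probe set apart read the same probe set of each gene. The second probe set of Nop16 differed by -0.04. Utp15 passed 2-fold after median centring (1.01), and no other gene changed its 2-fold call except by a change of threshold. At an adjusted p under 0.05 of any size, Nop16 was lost after quantile normalization and with the mean of probe sets, leaving 39 genes higher. The median difference of the set was 0.73 after quantile normalization and 0.88 after median centring, and 0.76 to 0.85 with 1 array left out. With 1 array left out, 13 genes were called higher each time. With no fold threshold, 40 genes of the set were called higher and 1 lower, against 4478 and 3694 of all genes. At 1.5-fold, 32 of the set were higher, against 2832 higher and 2245 lower of all genes. With the replicate number as a block, 13 genes of the set were called higher and 0 lower, and 1538 higher and 1458 lower of all genes, the counts without it, because every gene past 2-fold passed the adjusted p in both fits. The pairing was not taken as real, since deviations of same-numbered arrays had correlations of -0.016, 0.018 and -0.0060.

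With percentiles among all named genes, 3 genes instead of 8 ranked lower in mouse than in rat ES cells. Among the 23 genes with 3 different mouse values, 14 ranked higher and 6 lower in mouse ES than in rat ES cells, against 43.2% and 42.2% of the 2165 shared symbols with 3 such values. Against rat fibroblasts 20 ranked higher and 2 lower, beside 50.8% and 35.8%. With only the 250 bases before the start, 22.2% of the set's promoters held an E-box, against 7.07% for measured genes. The mouse values, the unknown normalization and the 3 arrays per group limit all of these.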
